A study of Mus musculus with 4 samples.

Results

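In the mouse mammary gland, 603 of 145453 distal regions of chromatin were open in both adult luminal lineages with few reads in 3 other groups. The 3 were adult basal-like, fetal luminal-like and fetal basal-like nuclei. These regions were selected on the measured accessibility itself. For each region, reads were summed over the nuclei of 5 groups of deposited classes, and a level (CPM) was the number of reads in the region for each 1000000 distal reads of the group. A region was kept when the lower of its levels in adult luminal progenitor-like nuclei (classes 3 and 7) and adult mature luminal-like nuclei (classes 2 and 11) was at least 10 CPM. With 0.5 CPM added to every level, that lower level also had to be at least 3 times the level in each of adult basal-like nuclei (classes 1 and 8), fetal luminal-like nuclei (classes 5 and 9) and fetal basal-like nuclei (classes 4 and 12). The contrast between the luminal groups and the other groups is therefore a description with no test.

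The mammary epithelium is a bilayer in which an outer basal layer of contractile myoepithelial cells surrounds inner luminal cells. Luminal cells of the adult comprise progenitors that carry Kit and Elf5 and give rise to milk-secreting cells, and mature hormone-sensing cells that carry the oestrogen and progesterone receptors. Distal elements open in a cell type are commonly enhancers, stretches of DNA bound by transcription factors that act on promoters at a distance.

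Nuclei came from wild-type CD1 mice, an outbred strain, and were profiled by single-nucleus ATAC-seq, in which a transposase tags open chromatin and barcodes mark the nucleus. Epithelial cells had been sorted as EpCAM-positive and negative for markers of other lineages, from fetuses at embryonic day 18 (E18) and from 8-week adults, and each stage has 2 libraries labelled as biological replicates. Among the fetal libraries, replicate 1 had 882 listed nuclei and replicate 2 had 1695, while the adult libraries had 2465 and 2804. The progenitor-like group held 1995624 and 2050732 distal reads in adult replicates 1 and 2, the mature luminal-like group 2465366 and 3380726, and the adult basal-like group 695566 and 1615947. The fetal luminal-like group held 1600853 and 3851573 distal reads in fetal replicates 1 and 2, and the fetal basal-like group 664888 and 2136272. How many animals made up a replicate is not given in the sources used here, so the spread between replicates may be partly technical. No barcode was shared between libraries (0 shared), and no doublet caller was run.

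The groups were checked against markers read over gene bodies. Of 10 basal markers, 9 were highest in the adult basal-like group, Lgr5 being the exception. Of 8 mature luminal markers, 7 were highest in the mature luminal-like group, with Tbx3 the exception. The luminal progenitor list fitted its group less well, since 4 of 8 markers were highest there and Lbp, Hey1, Csn3 and Aldh1a3 were not. Their summed level was nonetheless 561 and 500 CPM in the progenitor-like libraries, against 378 and 384 CPM in the fetal luminal-like libraries and 133 to 285 CPM elsewhere among the groups. The summed stromal markers lay between 97.9 and 194 CPM in all 5 groups and reached 562 CPM in class 6, which belongs to no group here.

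Sequence was at hand for 6 of the 603 regions, in which 7 promoter windows of RefSeq (GRCm38.p6, 250 bases before to 50 bases after an annotated start) lay entirely. The windows of 3 regions are printed, 2 because their regions had the highest lower luminal levels among the 6 and 1 because its region lay in a run of the set. Capitals mark the letters TGANTCA (bound by AP-1), GGAAGT (bound by ETS factors), AACNNGTT (grainyhead), TGTTTAC (forkhead) and TTGCNNAA (C/EBP), searched on both strands. Coordinates of the regions are in mm10, the build in the submitters' processing notes. The window of Gm12589 (chr11:121777499-121777798, plus strand) lay in a region with 33.5 CPM in progenitor-like and 28.1 CPM in mature luminal-like nuclei against at most 2.14 CPM in the other groups. The window of Gm16206 (chr3:53452369-53452668, plus strand) lay in a region with 35.7 and 36.6 CPM in the same luminal groups. The window of Gm13387 (chr2:25145438-25145737, minus strand) lay in a region with 14 and 25.1 CPM, 1 of a pair of the set near Nrarp, an inhibitor of Notch signalling. All 3 are written 5′ to 3′ on the strand of the annotated start.
Gm12589: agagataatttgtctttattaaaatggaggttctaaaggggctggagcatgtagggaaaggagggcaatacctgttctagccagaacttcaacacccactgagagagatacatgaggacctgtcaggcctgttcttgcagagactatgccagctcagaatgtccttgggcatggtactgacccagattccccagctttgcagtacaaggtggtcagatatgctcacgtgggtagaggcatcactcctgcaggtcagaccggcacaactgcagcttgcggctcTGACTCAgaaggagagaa
Gm16206: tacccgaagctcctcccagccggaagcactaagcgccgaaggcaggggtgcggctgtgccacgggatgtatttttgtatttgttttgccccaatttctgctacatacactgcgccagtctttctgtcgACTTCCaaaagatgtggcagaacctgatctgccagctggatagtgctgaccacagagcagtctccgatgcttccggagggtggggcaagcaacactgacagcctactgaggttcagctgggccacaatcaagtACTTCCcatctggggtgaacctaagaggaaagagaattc
Gm13387: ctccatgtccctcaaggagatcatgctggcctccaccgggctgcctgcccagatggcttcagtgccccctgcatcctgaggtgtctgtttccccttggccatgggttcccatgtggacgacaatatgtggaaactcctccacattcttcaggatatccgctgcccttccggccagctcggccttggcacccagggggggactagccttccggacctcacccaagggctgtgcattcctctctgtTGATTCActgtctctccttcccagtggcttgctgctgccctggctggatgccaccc
The Gm12589 and Gm13387 windows each held 1 AP-1 match and the Gm16206 window held 2 ETS matches. AP-1 letters stood in 2 of the 7 windows inside the set and in 379 of 2771 windows (13.7%) inside any distal region. ETS letters stood in 1 of the 7 and in 665 of 2771 (24.0%). C/EBP letters stood in 1 of the 7 against 13.2%, and grainyhead and forkhead letters in 0 of the 7 against 4.26% and 3.75%. Of 12 further patterns searched in the same way, AP-2 (GCCNNNGGC) and a short nuclear receptor pattern (AGGTCA) stood in 3 of the 7 windows each, against 17.4% and 16.6%. Letters of steroid receptors (ACANNNTGT) and KLF (CCACNCCC) stood in 2 windows each, against 6.50% and 18.1%. In 1 window each stood those of GATA factors (AGATAA, against 9.09%), SOX (AACAAT, 10.3%), NFI (TTGGCA, 17.3%), TEAD (GGAATG, 18.2%) and E-box factors (CAGGTG, 22.1%). In 0 windows stood those of RUNX (TGTGGTT, against 6.32%), STAT (TTCNNNGAA, 8.12%) and the p53 family (ACATGTC, 2.09%). The windows of Dennd2d and 2010016I18Rik lie in the same region and overlap on opposite strands. Their AP-2, AGGTCA and KLF matches are the same letters, counted in both windows. With 7 windows in 6 regions these are descriptions of single sequences.

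The steps of selection show which group limited the set. Both luminal levels reached 10 CPM in 14055 distal regions. Of these, 1419 also passed the ratio to both basal-like groups, and the fetal luminal-like group alone then removed 816 of the 1419 (57.5%). The adult basal-like group alone removed 455 regions from the 1058 that had passed both fetal groups (43.0%), and the fetal basal-like group alone removed 41 from 644 (6.37%). Fetal luminal-like nuclei were accordingly the highest of the 3 excluded groups in 392 of the 603 regions (65.0%). Across the set the median level was 19.2 CPM in progenitor-like, 26.6 CPM in mature luminal-like, 1.73 CPM in adult basal-like, 3.28 CPM in fetal luminal-like and 1.42 CPM in fetal basal-like nuclei. The ratio of the lower luminal level to the highest other group had a median of 3.97 (quartiles 3.39 and 5.32). It reached 5 in 178 regions and 10 in 26.

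Many regions lay close to the limit of the rule. The regions just inside it, with ratios that round to 3.00, were in Adipor2 (10.8 CPM for the lower luminal level against 3.28 CPM in fetal luminal-like nuclei), near Med21 and in Rap1gap2. Those just outside were near Dym, Rasa1 and Runx1t1, with ratios of 3.00, 3.00 and 2.99. In 599 of the 603 regions (99.3%) every luminal library lay above every library of the other groups, a pattern that the selection favoured and that 4.65% of all distal regions showed. The 4 exceptions were a region in Prlr and 3 regions nearest to Cwc22.

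When the rule was applied to the first replicates of both stages alone it kept 707 regions, and their levels could then be read in the second replicates, which had not been used for that choice. There both luminal groups were above all 3 other groups in 653 of the 707 (92.4%), against 13.8% of all distal regions. The ratio of 3 was reached again in 295 (41.7%), against 1.31% of all distal regions, and the median ratio was 2.66. The second replicates kept 594 regions, of which 561 (94.4%) had both luminal groups highest in the first replicates and 290 (48.8%) reached the ratio there, against 12.9% and 2.51% of all distal regions. The direction thus carried over for most of these regions while the size of the ratio often fell below the limit. Of the 707 regions 387 were in the set of 603, and of the 594 regions 422 were, so these shares are not those of the set itself. All distal regions, whose median lower luminal level was 1.48 CPM, are a background that is not matched for level. The gap to them is therefore not a measure of the contrast. The authors' classes were made from the accessibility of all nuclei together, so the replicates were not independent in the assignment of nuclei. The replicates kept 256 regions in common, 255 of them in the set of 603.

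The regions with the highest lower luminal level lay near genes of varied function. At chr1:16227636-16228635, 668 bases from Stau2, which encodes a double-stranded RNA-binding protein, the progenitor-like level was 146 and 140 CPM in adult replicates 1 and 2 and the mature luminal-like level 140 and 103 CPM. Adult basal-like libraries had 23.0 and 19.2 CPM, fetal luminal-like libraries 22.5 and 24.7 CPM and fetal basal-like libraries 3.01 and 4.68 CPM there. The luminal and other libraries did not overlap, although this region had more reads in basal and fetal nuclei than the typical member. Class 13, which the rule did not use and which holds mostly fetal nuclei, had 111 CPM there (37 reads), above mature luminal-like replicate 2. At chr1:105866514-105867513, 17569 bases from Tnfrsf11a, which encodes RANK, the receptor through which progesterone signals spread in the mammary gland, progenitor-like libraries had 87.7 and 95.1 CPM and mature luminal-like libraries 120 and 106 CPM. The other groups had between 9.02 and 27 CPM in each library there.

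A region inside Appl2, an adaptor of endosomes (chr10:83644680-83645679), had a deeper contrast. Its levels were 125 and 109 CPM in progenitor-like and 94.5 and 60.9 CPM in mature luminal-like libraries, against at most 12.5 CPM in any library of the other groups. Inside Itgb6, the beta subunit of an integrin of epithelia (chr2:60694173-60695172), progenitor-like libraries had 136 and 106 CPM and mature luminal-like libraries 79.9 and 69.2 CPM. Both of these were higher in the progenitor-like sums by the test of the luminal lineages below. The remaining regions of the top 10 lay near Hmga1, an architectural chromatin protein (lower luminal level 100 CPM), Tmc1 (96.6 CPM), Gucy2g (73.9 CPM), Pcdh1, a protocadherin (70.4 CPM), Cwc22 (64.9 CPM) and Sepsecs (64.8 CPM). Class 6, which the rule did not use, had 93.0 CPM (45 reads) at the Hmga1 region, above mature luminal-like replicate 2 (82.5 CPM). At the regions of Tmc1, Gucy2g, Pcdh1, Cwc22 and Sepsecs class 6 had 4.13, 22.7, 0, 51.7 and 0 CPM.

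**Figure D1:**
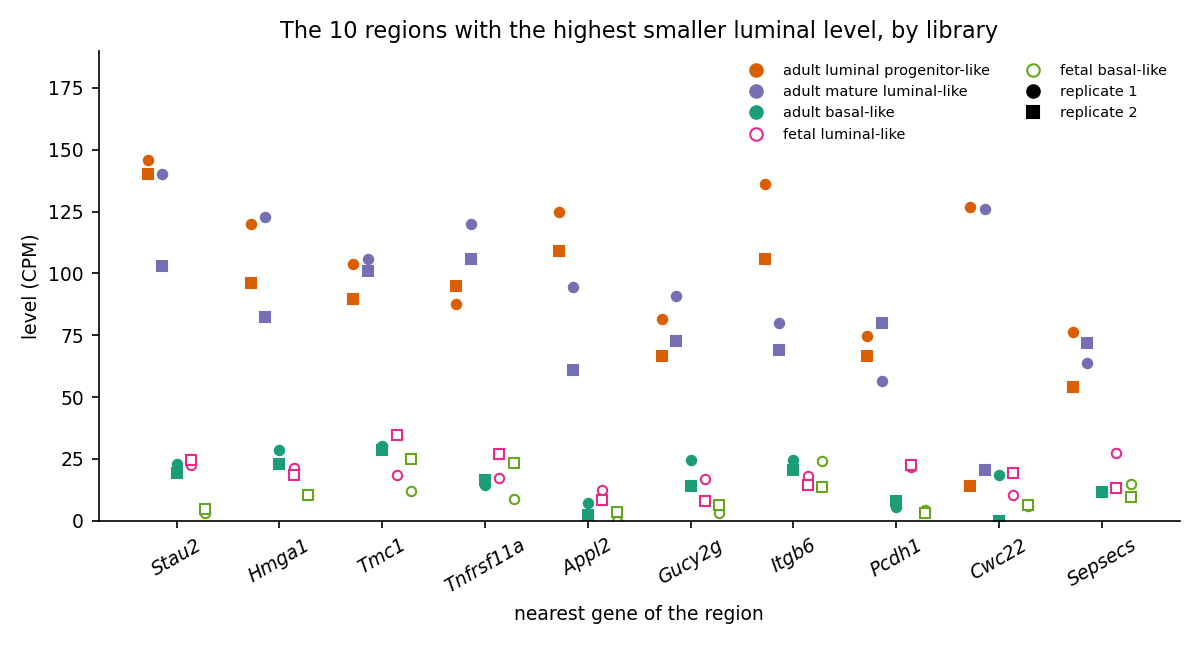
Level (CPM) of the 10 regions with the highest lower luminal level, in each library; the horizontal axis names the nearest gene, filled symbols are adult and open symbols fetal groups, circles replicate 1 and squares replicate 2. For 9 of the regions all luminal points lie above the other points, while for Cwc22 the progenitor-like point of adult replicate 2 (14.1 CPM) lies below fetal luminal-like replicate 2 (19.2 CPM).

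Among the members, the adult libraries stood apart in both lineages at 1 locus. At chr2:78020778-78021777, 74921 bases from Cwc22, which encodes a splicing factor, the progenitor-like level was 127 CPM in adult replicate 1 and 14.1 CPM in replicate 2, and the mature luminal-like level 126 and 20.7 CPM. Cwc22 was the nearest gene of 4 members, more than any other gene had, and all 4 were at least 3-fold higher in adult replicate 1 in both lineages. No other member differed that much between the adult libraries in both lineages. Of the 14055 regions at 10 CPM or more in both lineages 9 did, of which 7 were nearest to Cwc22 and the others to Cyp7b1 and Trabd2b. Reads count DNA fragments, so more copies of the DNA and more open chromatin cannot be told apart in the levels of these 4 regions, and copy number was not tested. The 4 regions passed the rule without adult replicate 2 and none passed it without adult replicate 1 (0 of 4). The set without them has 599 regions, and the results below are given with them except where stated. Among all members, the median difference between the adult libraries was 0.33 (log2) in the progenitor-like group and 0.25 in the mature luminal-like group. It was over 2-fold at 42 members in the progenitor-like group and at 17 in the mature luminal-like group.

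**Figure D2:**
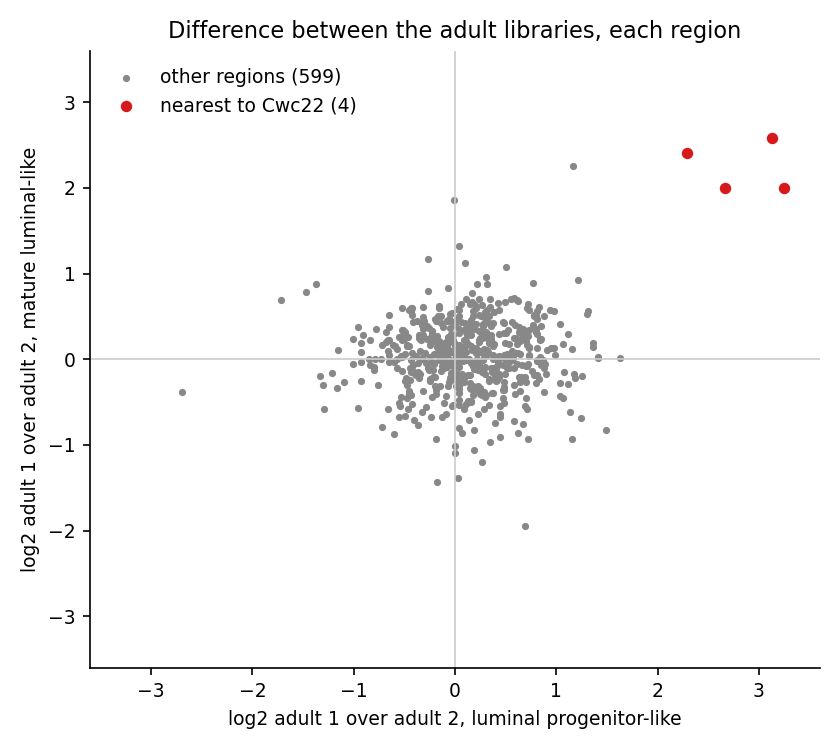
Log2 ratio of adult replicate 1 to adult replicate 2 (levels in CPM, 0.5 added) in progenitor-like nuclei (horizontal) and mature luminal-like nuclei (vertical), 1 point per region. The 4 regions nearest to Cwc22 (red) lie apart at the upper right, while the 599 others scatter around 0.

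The highest ratio was at chr10:96690215-96691214, 67901 bases from Btg1, an antiproliferative gene, with 70.7 and 68.8 CPM in progenitor-like and 60.4 and 56.8 CPM in mature luminal-like libraries. No library of the other groups exceeded 3.75 CPM there, and the ratio was 31.0. Class 6, where stromal markers were highest and which the rule did not use, had 74.4 CPM at this region (36 reads), above both luminal groups. A region inside Irak2, a kinase of interleukin-1 receptor signalling (chr6:113642605-113643604), had luminal levels of 33.0 and 21.8 CPM against 2 reads in all in the other groups, both in fetal replicate 2, while class 6 had 10.3 CPM (5 reads). One region, chr13:108552233-108553232 at a distance of 101445 bases from Pde4d, a cAMP phosphodiesterase, had no read in any of the 3 other groups. Class 6 had 10.3 CPM there (5 reads), near the lower luminal level of 11.1 CPM. The luminal levels of this region were 13.8 and 11.1 CPM. A count of 0 allows up to 3 reads if reads are independent. That is 1.29 CPM in adult basal-like, 0.546 CPM in fetal luminal-like and 1.07 CPM in fetal basal-like nuclei. The lower luminal level was 8.56 times the highest of these limits. Both ends of a fragment were counted and are not independent, so these limits are too low and 8.56 is not a lower bound. These 3 regions were named after their values were seen.

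A list of 41 genes, taken as active in both luminal lineages, was examined. Elf5, Foxa1 and Prlr on this list also served as markers of a single luminal lineage. The regions of the set had 6 of the 41 as nearest gene (14.6%), against 2.51% of all 21900 protein-coding genes. Within 100000 bases of a member there were 10 of the 41 (24.4%), against 8.63% of all genes. These were Krt7 and Krt19, Cldn3 and Cldn4, Elf3, Grhl1, Esrp1, Prlr, Id2 and Bcl3. Of the basal markers none was the nearest gene of a member (0 of 10), against 2.51% of all genes. Within 100000 bases lay 3 of the 10 (30.0%), a share no lower than that of the list of 41. Among these, Krt14 and Krt17 share the keratin cluster with Krt19. The third basal gene was Acta2, with a member at 31488 bases. Within 100000 bases lay also 3 of 7 general luminal, 0 of 8 progenitor and 1 of 8 mature luminal markers. Of other cell types there were 0 of 7 stromal, 0 of 3 endothelial and 1 of 4 immune markers. Nearness at that distance did not set the list of 41 apart from the basal markers.

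At the keratin cluster on chromosome 11, a region 11888 bases from Krt19, which encodes a luminal keratin (chr11:100157315-100158314), had 46.1 and 41.9 CPM in progenitor-like and 76.7 and 60.9 CPM in mature luminal-like libraries. Adult basal-like libraries had 2.88 and 10.5 CPM and fetal luminal-like libraries 15.0 and 12.2 CPM. The fetal luminal-like level was the highest of the other groups at this keratin gene. Inside Krt7, another luminal keratin, the levels were low and the libraries differed, with 6.01 and 17.6 CPM in progenitor-like and 16.2 and 9.17 CPM in mature luminal-like libraries. Fetal luminal-like nuclei had 3.28 CPM there, so the lowest luminal library lay under the minimum of 10 CPM but above the other groups.

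At the tight junction genes Cldn3 and Cldn4 a single region (chr5:134956825-134957824), 10390 bases from Cldn4, had 30.6 and 30.7 CPM in progenitor-like and 25.6 and 19.2 CPM in mature luminal-like libraries. Adult basal-like nuclei had 1 read there in all. A region 7488 bases from Elf3, an epithelial ETS factor, and within the span of Rnpep (chr1:135265461-135266460), had luminal levels of 19.5 and 22.3 CPM and no adult basal-like read. Inside Prlr, the prolactin receptor (chr15:10191841-10192840), progenitor-like libraries had 30.1 and 28.3 CPM and mature luminal-like libraries 41.0 and 47.9 CPM, against 0 to 6.25 CPM in the other libraries. The other member inside Prlr (chr15:10247846-10248845) had 4.01 and 28.8 CPM in progenitor-like and 15.8 and 20.7 CPM in mature luminal-like libraries, and progenitor-like replicate 1 lay below adult basal-like replicate 1 (8.63 CPM).

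Esrp1, a splicing regulator of epithelial cells, had a member at 18458 bases with 33.0 and 22.7 CPM in the luminal groups (chr4:11404742-11405741). Id2, an inhibitor of helix-loop-helix factors, had one at 69744 bases (chr12:25165337-25166336) with 63.1 and 58.0 CPM in progenitor-like and 74.6 and 61.2 CPM in mature luminal-like libraries. At this region the other groups had at most 5.75 CPM in a library and the ratio was 12.1, the highest among the listed genes. The members nearest to Grhl1 (98891 bases away) and Bcl3 (18965 bases away) were lower in progenitor-like nuclei, at 15.5 and 10.3 CPM, than in mature luminal-like nuclei, at 51.1 and 41.8 CPM.

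The regions were scattered, with few runs. Of the 603, 360 (59.7%) lay inside the span of a protein-coding gene, against 53.4% of all distal regions, and 29 (4.81%) lay over 100000 bases from any such gene, against 11.4%. The 603 regions had 549 nearest genes, of which 43 were nearest to 2 or more members and 10 to 3 or more. Beside Cwc22 these 10 were Slc28a3, Sik1, Ctnnbl1, Emp1, Cd82, Rab11fip1, Hsf2bp, Usp49 and Pfkfb3, each with 3. Members within 12.5 kb of each other formed 22 runs that held 48 members (7.96%). The share in such runs was 9.69% of the 1084 regions at least 3 times higher in progenitor-like nuclei than in each other group. Of the 816 regions that the fetal luminal-like group alone had removed, 98 lay in such runs. In the larger set of 6742 regions highest in mature luminal-like nuclei by the same margin the share was 20.6%. These sets are not separate from the members, of which 1 is also in the first and 37 are in the last. The longest runs had 3 members.

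In Rab11fip1, an effector of the recycling endosome, in Usp49, a deubiquitinase, and at Pfkfb3, a regulator of glycolysis, all 3 distal regions in the span of the run were members. The run in Rab11fip1 (chr8:27163571-27172918) had progenitor-like levels of 14.8, 52.7 and 35 CPM and mature luminal-like levels of 14.1, 46.9 and 25.4 CPM. The run in Emp1, an epithelial membrane protein (chr6:135367855-135376499), had 44.4, 24.6 and 19.0 CPM in progenitor-like and 54.9, 39.7 and 42.9 CPM in mature luminal-like nuclei. The run at Pfkfb3 (chr2:11469222-11473861), was lower, at 13.6 to 20.2 CPM and 10.2 to 15.5 CPM, and had at most 1.29 CPM in the other groups. On the X chromosome there were 5 members among 2851 distal regions (0.175%), against 0.415% over the genome.

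As a whole, the set took up 1.47% ± 0.103 (SD, n = 2) of the distal reads of progenitor-like nuclei and 1.97% ± 0.0761 of those of mature luminal-like nuclei. The shares were 0.175% ± 0.0101 in adult basal-like, 0.258% ± 0.00604 in fetal luminal-like and 0.135% ± 0.000978 in fetal basal-like nuclei, each with n = 2. Within the groups the classes were not alike. Progenitor-like class 7 had 1.61% and class 3 had 1.24%, and mature luminal-like class 2 had 2.08% and class 11 had 1.71%. Fetal luminal-like class 9 had 0.298%, above class 5 with 0.157%, which was at the level of the basal-like classes.

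Classes 6, 10, 13 and 14 were in no group of the rule, so their shares were not chosen. Adult class 10, in which luminal markers summed to 592 CPM over gene bodies, had 1.73% ± 0.0975 (SD, n = 2), between both luminal lineages. Adult class 14 had 1.17% ± 0.0261. Fetal class 13 had 0.639% ± 0.0214, which was the highest share among fetal classes with at least 20 nuclei in a library and over 2 times the fetal luminal-like share. Class 6, where stromal markers were highest, had 0.333% ± 0.0536 in fetal and 0.567% ± 0.0108 in adult libraries. Region by region, class 10 lay above all 3 excluded groups at 589 of the 603 (97.7%), against 31.3% of all distal regions. Class 14 did so at 518 (85.9%, against 27.7%), class 13 at 353 (58.5%, against 29.5%) and class 6 at 293 (48.6%, against 27.7%). The rule held the 3 excluded groups low at the members, so higher counts than over all distal regions follow for any class and nothing is read from the gap. These classes are small, with 144, 85, 114 and 213 nuclei in the order 10, 14, 13 and 6, and mixing of 2 nuclei under 1 barcode was not tested.

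**Figure D3:**
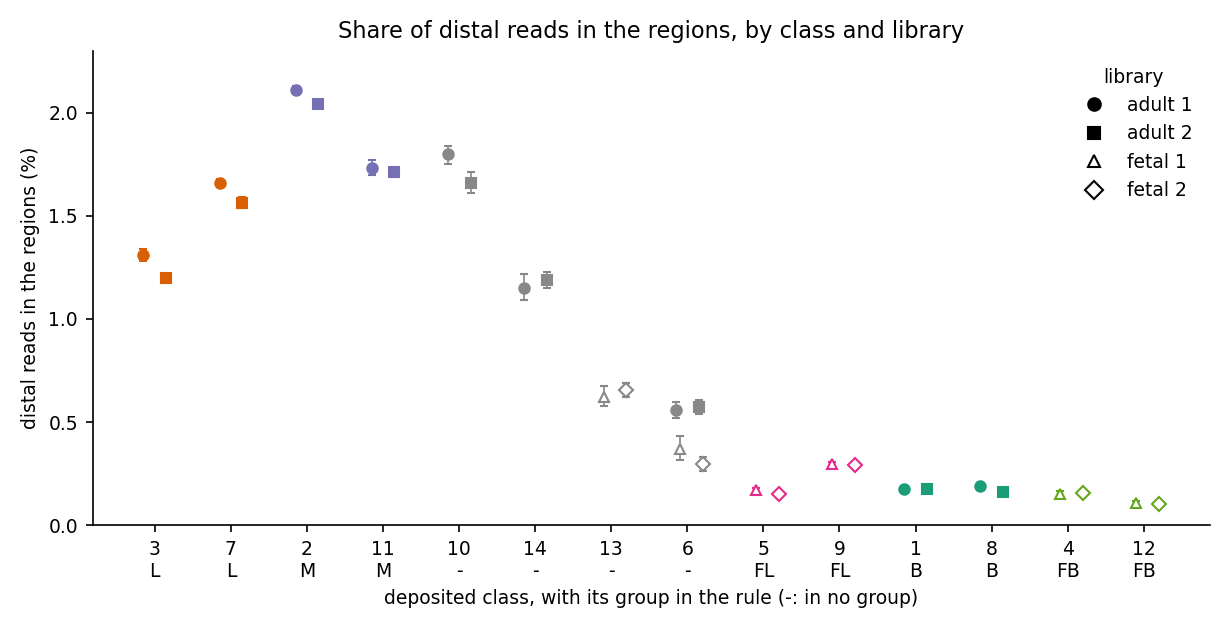
Share of distal reads (%) that fell in the 603 regions, for each deposited class with at least 20 nuclei in a library; bars are exact binomial 95% intervals for counting error, and L, M, B, FL and FB stand for progenitor-like, mature luminal-like, adult basal-like, fetal luminal-like and fetal basal-like. The luminal classes 3, 7, 2 and 11 and class 10 lie above 1%, class 14 at 1.15 and 1.19%, fetal class 13 at 0.624 and 0.654%, and the fetal luminal-like and basal-like classes below 0.3%.

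The set was also read nucleus by nucleus, in the nuclei and reads with which the rule had chosen it. A separation of the groups was therefore built in, and the counts describe only its size in single nuclei. When each nucleus was thinned to 1000 distal reads, the median number that fell in the set was 15 and 14 reads in progenitor-like nuclei of adult replicates 1 and 2 and 20 and 19 reads in mature luminal-like nuclei. In adult basal-like nuclei it was 2 and 1, in fetal luminal-like nuclei 2 in both libraries, and in fetal basal-like nuclei 1 in both. The 95th percentile of adult basal-like nuclei was 5 reads. Above it lay 97.6% of 1526 progenitor-like and 99.9% of 1891 mature luminal-like nuclei, but 9.99% of 1492 fetal luminal-like and 2.11% of 760 fetal basal-like nuclei. Of the thinned nuclei, no luminal nucleus of the adult groups was without a read in the set (0 of 1526 and 0 of 1891). Thinning left out 209 progenitor-like, 195 mature luminal-like, 167 adult basal-like, 102 fetal luminal-like and 55 fetal basal-like nuclei with fewer reads. Without thinning, 25.6% of adult basal-like and 10.3% of fetal luminal-like nuclei had no read in the set.

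Within the classes outside the rule, 99.3% of thinned class 10 nuclei lay above that basal percentile, 95.1% of class 14, 56.7% of class 13 and 31.0% of class 6. Fetal luminal-like class 9 had 13.5% of nuclei above it and class 5 had 2.52%. The classes themselves came from the accessibility of these nuclei, so the separation describes them and does not test them.

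**Figure D4:**
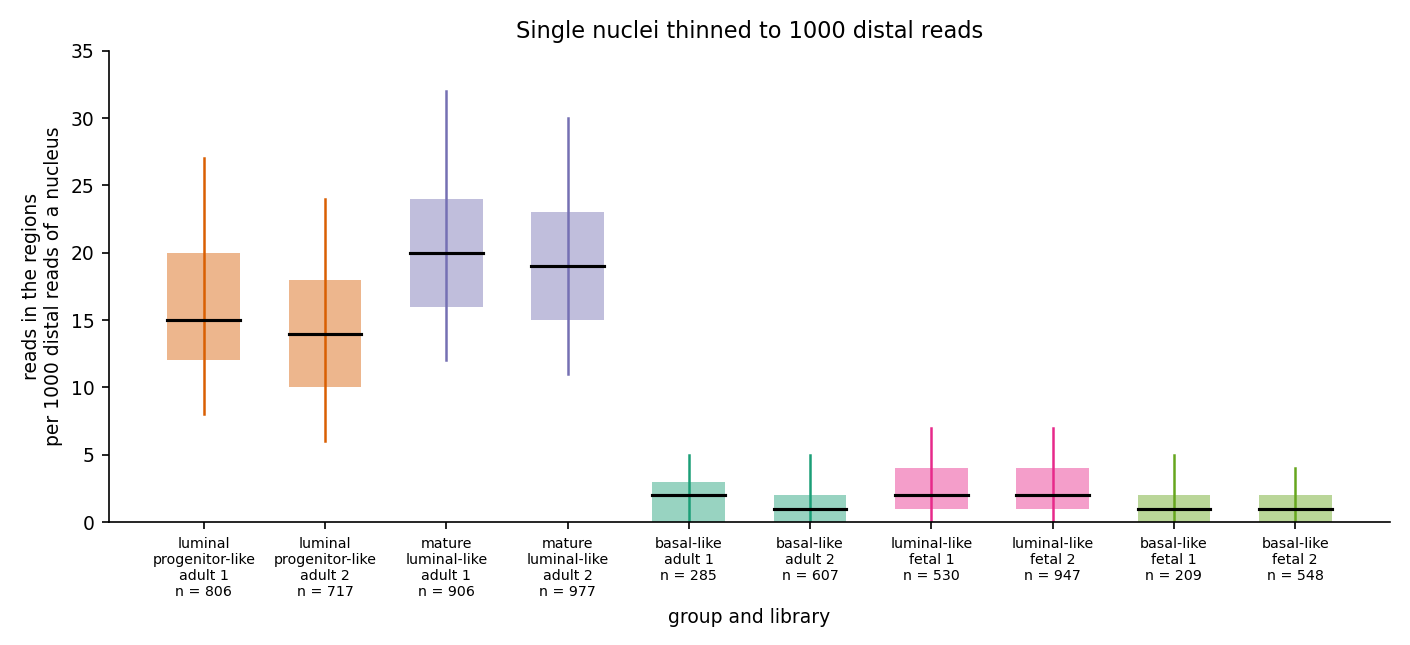
Reads in the 603 regions per nucleus after thinning to 1000 distal reads, by group and library; boxes span the quartiles, black lines are medians and vertical lines run from the 5th to the 95th percentile. Adult luminal nuclei have medians of 14 to 20 reads and the other groups 1 to 2.

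The rule used the lower of both luminal levels without regard to which lineage it came from. Which lineage was higher was tested over every distal region whose 4 adult luminal sums averaged 10 reads or more (edgeR quasi-likelihood test, Benjamini-Hochberg adjusted p under 0.05). Of the 603 members, all of which were tested, 30 (4.98%) were higher in the progenitor-like sums and 152 (25.2%) in the mature luminal-like sums. Over all 63299 tested regions these shares were 22.1% and 26.1%, and over the 14055 with both luminal levels at 10 CPM or more they were 19.2% and 11.4%. The reads tested are those with which the rule chose the members, and the minimum for the lower level removed regions near 0 in 1 lineage, so the shares are given beside their backgrounds as a description. The median log2 ratio of progenitor-like to mature luminal-like sums was -0.25 over the members and -0.10 over all tested regions. Computed from the pooled CPM, it was -0.30 over the members and 0.06 over the 14055 regions with the same minimum of 10 CPM. In the fits, leaving out progenitor-like replicate 2 turned the order, with -0.12 over the members and -0.25 over all tested regions. Without progenitor-like replicate 1 or mature luminal-like replicate 1 or 2 the members were lower, at -0.26, -0.34 and -0.45 against -0.21, -0.05 and 0.03. In all 182 called members the direction was the same in both adult libraries. A test on 2 sums per lineage hardly calls a region whose libraries disagree, so this is no separate support for the calls. Without mature luminal-like replicate 1 the count higher in progenitor-like sums was 16, and without mature luminal-like replicate 2 it was 13. The p-values rest on 2 sums per lineage, 1 from each adult library, and on classes made from the same nuclei.

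The largest called difference toward the progenitor-like side was 21143 bases from Fat1, an atypical cadherin (chr8:44911458-44912457). It had 61.6 and 46.8 CPM in progenitor-like and 8.11 and 13.9 CPM in mature luminal-like libraries, a log2 ratio of 2.32 (SE 0.30, adjusted p = 5.48e-06). Next came a region 30099 bases from Map3k7cl (log2 ratio 1.61) and one 101121 bases from Tnrc6c, a partner of Argonaute proteins, with 46.1 and 45.3 CPM in progenitor-like and 17.4 and 16.3 CPM in mature luminal-like libraries. Toward the mature luminal-like side the largest difference was inside Sfi1, a centrosomal gene (chr11:3160846-3161845), with 56.1 and 40.0 CPM in progenitor-like and 359 and 510 CPM in mature luminal-like libraries (log2 ratio -3.12, SE 0.19, adjusted p = 2.82e-09). Whether reads at Sfi1 mapped to 1 place in the genome was not tested. Ildr1, a protein of tricellular junctions, held a region with 16.5 and 8.78 CPM against 86.0 and 92.3 CPM (log2 ratio -2.75), and a region 8667 bases from Zc3h15 had a log2 ratio of -2.43.

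The difference was not called at 421 members, and 484 members (80.3%) had luminal levels within 2-fold of each other, against 82.1% of the 14055 regions. At these members equality was not shown, since the median SE of the members was 0.31 and the largest uncalled log2 difference was 1.06. Of the members at listed luminal genes, the one near Krt19 was higher in mature luminal-like sums (log2 ratio -0.57, SE 0.21, adjusted p = 0.0305), as were those nearest to Grhl1 (log2 -1.65) and Bcl3 (log2 -1.95). Those near Cldn4 (log2 0.53), Esrp1 (log2 0.58), Elf3 (log2 -0.16), Id2 (log2 -0.10), Prlr (log2 -0.55) and Krt7 (log2 -0.01) did not pass the threshold. The second member near Krt7, inside Krt87 (chr15:101434527-101435526), was higher in mature luminal-like sums, with 22.0 and 20.5 CPM in progenitor-like and 48.3 and 37.6 CPM in mature luminal-like libraries (log2 ratio -0.94, SE 0.27, adjusted p = 0.00677). The second members near Prlr (log2 -0.10) and Bcl3 (inside Pvr, log2 0.68) did not pass.

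**Figure D5:**
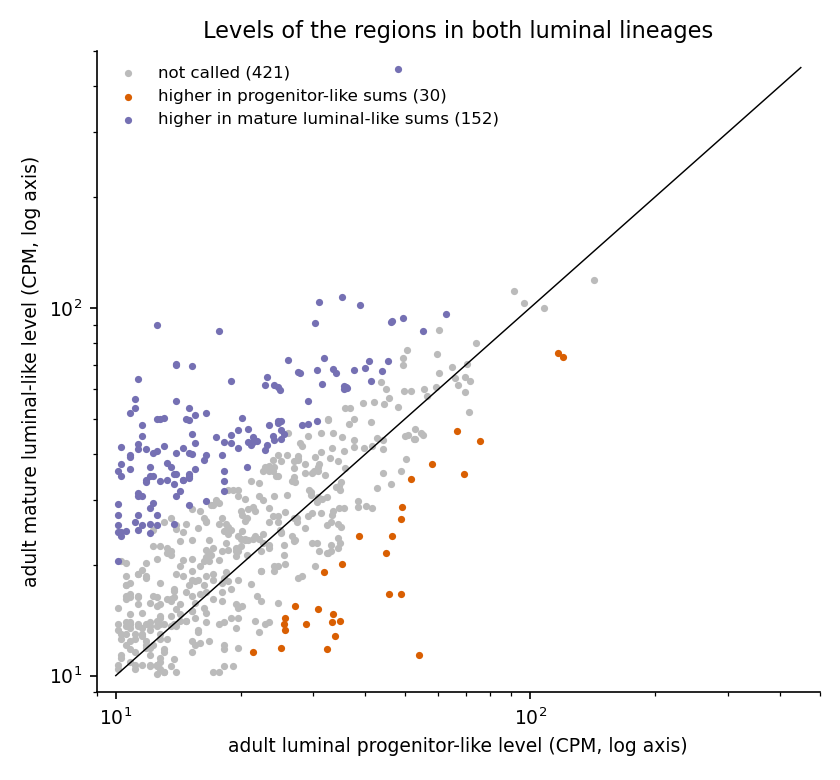
Level (CPM, log axes) of the 603 regions in progenitor-like (horizontal) and mature luminal-like (vertical) nuclei, with the line of equal levels. Points are coloured by the test between lineages, with 30 higher in progenitor-like sums, 152 higher in mature luminal-like sums and 421 not called; Sfi1 is the point at 445 CPM.

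Co-accessibility scores of Cicero, as the authors deposited them, linked the regions to promoters. A score of at least 0.1 to a promoter region was found for 330 of the 603 regions (54.7%), against 17393 of all 145453 distal regions. Such a link was found for 33.8% of the 1084 regions highest in progenitor-like nuclei and for 33.7% of the 6742 highest in mature luminal-like nuclei. It was found for 53.7% of the 816 regions that the fetal luminal-like group alone had removed. The first of these sets holds 1 member and the second 37. Scores between members themselves reached 0.1 in 155 of 180 scored pairs (86.1%), against 2.51% of all scored distal pairs. The related sets were also high, with 81.0% in the mature luminal-like set, 74.0% among the 816 and 60.7% in the progenitor-like set. The scores come from the nuclei that chose the regions, so these shares are a description.

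The highest score, 0.580, joined a region at chr2:163610774-163611773 to a promoter region 117166 bases away at Hnf4aos, the antisense gene of the nuclear receptor gene Hnf4a. That promoter had 128 CPM (of promoter reads) in mature luminal-like nuclei, 16.1 CPM in progenitor-like nuclei and at most 6.50 CPM elsewhere. A score of 0.534 joined chr4:62339668-62340667 to the shared promoter region of Rnf183, a ubiquitin ligase, and Gm30589. This promoter resembled its distal partner, with 33.5 and 54.6 CPM in the luminal groups against at most 4.08 CPM in the other groups. At Rnf224 and Slc34a3 a shared promoter region (score 0.533) had 1.65 CPM in progenitor-like and 88.8 CPM in mature luminal-like nuclei, while the linked region had 18 and 39.9 CPM. The linked distal region was open in both lineages and this promoter region mainly in 1. A second promoter region, at Cysrt1 and Rnf224, was linked to the same distal region at 0.486. It was open in both lineages, with 83.9 CPM in progenitor-like and 128 CPM in mature luminal-like nuclei. A promoter region of Il17c, a cytokine of epithelia, was linked at 0.523 and was higher in progenitor-like nuclei (82.2 against 35.5 CPM), with 30.1 CPM in fetal luminal-like nuclei.

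Few promoters shared the contrast that defined the regions. Of 649 promoter regions linked to a member, 564 had at least 10 CPM in both luminal groups. In 313 of these (55.5%) both luminal levels exceeded the other 3 groups, against 17.8% of 12537 promoter regions at that level. A ratio of 3 was reached by 6 (1.06%), against 0.183%. These promoters were picked by scores with the members, from the nuclei that chose the members. Both shares therefore lean toward the luminal groups by selection, and nothing is read from the gap to all promoter regions. The 6 were the promoter regions of Rnf183, of Il18r1 and Il1rl1, which encode receptors of the interleukin-1 family, of Fbxo31, of Pik3cg and of Natd1, and 1 with no gene end within 2000 bases. At the Fbxo31 promoter the levels were 104 and 87.7 CPM in progenitor-like and 113 and 112 CPM in mature luminal-like libraries, and at most 17.3 CPM in any library of the other groups.

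Motif scores of chromVAR, a measure of how open all regions with a motif are in a nucleus relative to the average, were not used by the rule but come from the same nuclei. In 91 of 427 motifs (21.3%) every luminal library mean exceeded every mean of the other groups. The 91 include names with the same means, such as Foxj2, Foxk1, Foxk2, Foxo3, Foxp3 and Foxp4, each counted separately. The gap between the lowest luminal and the highest other mean was widest for Foxa3 (0.74), Foxp1 (0.68) and Rxra (0.67). Foxa3 was unequal between the lineages, with -0.32 and -0.45 in progenitor-like and 2.80 and 3.18 in mature luminal-like libraries. Foxp1 was unequal too, with -0.12 and -0.19 in progenitor-like and 2.28 and 2.58 in mature luminal-like libraries. Rxra, Ets1, Foxa1, Elf5 and Grhl1 were chosen for description after their values were seen and do not stand for the other motifs. Rxra, a nuclear receptor motif, had 0.28 and 0.30 in progenitor-like and 0.55 and 0.74 in mature luminal-like libraries against -0.39 to -1.07 elsewhere. Ets1 had 0.31 and 0.18 in progenitor-like and 0.31 and 0.24 in mature luminal-like libraries against -0.34 to -0.48 elsewhere. Foxa1, a forkhead motif, was also ordered this way but unequally, with 3.82 and 4.36 in mature luminal-like and -0.98 and -1.13 in progenitor-like libraries, against -1.55 to -2.73 elsewhere.

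Elf5 and Grhl1 did not share the pattern of the regions. Elf5, an ETS factor of luminal progenitors, had 1.79 and 1.60 in progenitor-like libraries but -0.63 and -0.78 in mature luminal-like libraries. Grhl1, an epithelial grainyhead factor, had 0.42 to 0.66 in the adult luminal libraries and 0.51 and 0.60 in fetal luminal-like libraries, against -1.15 to -1.82 in basal-like libraries. Factors of 1 family share a motif and cannot be told apart by these scores.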

How the data were processed

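Single-nucleus ATAC-seq reads of 4 libraries were analysed from the read positions and lists of nuclei that the authors deposited. Per the submitters' processing notes, Bowtie2, MACS2 and bedtools were used with mm10, with no role or version given. Motif scores (chromVAR) and co-accessibility scores (Cicero) were used as the authors deposited them, with their class number and read count per nucleus. Every listed nucleus had at least 2000 reads.

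Reads, with both ends of a fragment listed separately and positions unshifted, were counted in each 1000-base region they overlapped by 1 base. Both ends of a fragment are not independent, so binomial 95% intervals cover counting error only and are too narrow. Luminal sums of each adult library were tested with edgeR 4.0.16 in R 4.3.3 (TMM factors from 0.987 to 1.01, tested on simulated data), and DESeq2 1.42.0 was an alternative. SE is the log2 ratio over the square root of F. Progenitor-like and mature luminal-like sums of 1 library share animals, so they are paired by design (r = 0.0762 of their replicate differences over 10700 regions).

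The nearest gene is the protein-coding gene of RefSeq GRCm38.p6 whose span is closest, in place of the planned nearest start. Named are the regions with the highest lower luminal level, the largest called differences with one direction in both libraries, those nearest to the limit, the longest runs, the genes with most members, listed genes and the top scores to promoters. Members and lists were chosen with earlier results of these data known. Python 3.11.15 was used.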

Additional observations from a re-analysis of the deposited data

Results flagged for a closer look

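Barcodes that the authors did not list as nuclei also had reads in the set. They gave 1.46% of their distal reads to the 603 regions in adult replicate 1 (exact binomial 95% interval 1.43 to 1.49%) and 1.12% in adult replicate 2 (1.10 to 1.14%). The same share was 0.258% and 0.272% in fetal replicates 1 and 2. These barcodes entered no comparison, and what they hold was not tested.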

How the results depend on the processing

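The number of regions depended on the limits of the rule. A lower luminal level of at least 5 CPM kept 1030 regions and of at least 20 CPM 249, and a ratio of 2 kept 1413 and of 4 kept 297. Adding 0.1 or 1 CPM, counting by read midpoint, deeper nuclei only or the larger class of each group kept 535 to 658, but the regions changed. The larger class alone kept 431 of the 603 members (71.5%) and deeper nuclei 471 (78.1%). Leaving out 1 library kept 569 to 714. Of the 603, 253 (42.0%) were kept whichever library was left out. Applying the rule to each replicate alone (707 and 594 regions) was chosen after seeing the data. Members higher in progenitor-like sums numbered 20 to 34 and in mature luminal-like sums 142 to 187 with DESeq2, other scaling, other filters or midpoint counting. Of these settings, a filter at a mean of 50 reads tested only 395 of the 603 members and called 22 and 163. Over all 10683 regions tested with that filter, 2519 and 2944 were called. Leaving out 1 sum gave 13 to 39 and 115 to 159. With the library as a replicate block, 29 and 151 members were called. The 6 named lineage differences kept their direction and side of the threshold wherever they were tested. Listed luminal genes with a member numbered 8 within 50000 bases and 10 within 100000 bases. Motif shares of whole regions were not run, since no genome was used here.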

Other observations

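The difference between adult libraries near Cwc22 was not limited to the 4 members. Over chr2:77869343-78027271, 46 distal regions had Cwc22 as nearest gene, and the level in adult replicate 1 exceeded that in adult replicate 2 at 44 of them in progenitor-like, 42 in mature luminal-like and 37 in adult basal-like nuclei. Their summed level was 905 against 130 CPM in progenitor-like, 778 against 181 CPM in mature luminal-like and 358 against 57.6 CPM in adult basal-like nuclei. In fetal replicates 1 and 2 it was 162 and 243 CPM in luminal-like and 211 and 263 CPM in basal-like nuclei. At the next distal region, chr2:78048935-78049934, the adult libraries had 55.1 and 51.2 CPM in progenitor-like and 93.7 and 83.4 CPM in mature luminal-like nuclei, while adult basal-like nuclei had 53.2 and 91.6 CPM, higher in replicate 2. The stretch was chosen after its values were seen, and no cause of the difference was tested. Without the 4 members, the set held 1.51% and 1.39% of the distal reads of progenitor-like nuclei in adult replicates 1 and 2 and 1.99% and 1.91% of those of mature luminal-like nuclei.

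A few nuclei were placed in classes mostly of the other stage. The 9 and 10 adult nuclei of class 9 gave 0.771% and 0.620% of their distal reads to the regions, against 0.296% and 0.294% in fetal nuclei of that class, with exact binomial 95% intervals of 0.624 to 0.942% and 0.531 to 0.719% for the adult nuclei. The 3 and 6 fetal nuclei in progenitor-like classes gave 0.679% and 0.505%, below the adult nuclei of those classes (1.54% and 1.39%). The 3 and 7 fetal nuclei in mature luminal-like classes gave 0.872% and 1.32%. With so few nuclei these are single values, and whether a class assignment is right was not tested.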
